A study of Danio rerio with 12 samples.

Results

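Amino acid carriers are membrane proteins of the solute carrier superfamily. The set described here holds 9 zebrafish carrier genes, slc3a2a, slc3a2b, slc7a5, slc7a11, slc7a3a, slc1a4, slc1a5, slc38a2 and slc38a3a, of 35004 genes in the deposited table. They were chosen by symbol, with earlier results of these data known, and matched to the table's gene names ignoring case. For the 7 genes that the table gives under a human-style symbol, such as SLC7A5, the zebrafish copy was picked by the gene description. All 9 were found, and 8 of them passed the filter on low values, each with at least 5.76 FPKM in every library. The exception, slc7a11, stayed below 1 FPKM in all 12 libraries.

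The measurements are poly(A) RNA sequencing of whole larvae aged 3 days post-fertilization, in 12 libraries. The 4 groups of 3 libraries were gcn2 knockout larvae in hypoxia, wild-type (WT) larvae in hypoxia, gcn2 knockout larvae in normoxia and WT larvae in normoxia, each kept for 8 hours in its oxygen condition and raised at 28.5 °C. The replicates are stated to be biological. The knockout allele, the oxygen level, the strain background and the number of larvae pooled in a library are not given in the sources used here.

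The glycoprotein SLC3A2 (4F2hc, CD98) is a heavy chain that brings light chains of the SLC7 family to the cell surface. The CAT group of cationic carriers within SLC7 and the SLC1 and SLC38 carriers work without such a partner. Gcn2 is a kinase activated by uncharged transfer RNA when amino acids run short. In mammals it phosphorylates the initiation factor eIF2, which raises translation of the transcription factor ATF4, and amino acid carrier genes are among the known ATF4 targets.

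Levels are FPKM, fragments per kilobase of gene divided by a total set by the authors for each library. That total was 0.945 to 0.997 times the recovered reads in hypoxia and 1.01 to 1.07 times in normoxia. FPKM correct for gene length and can be set side by side between genes. Group levels are means ± SD with n = 3. Fold changes compare the group means of log2(FPKM + 1), are given ± SE on that log2 scale, and understate the change of genes with low values. Adjusted p-values are from limma with Benjamini-Hochberg adjustment over 21480 genes, and a gene is said to rise or fall below an adjusted p of 0.05. Reads recovered from the table ranged from 15668848 to 16841145 per library. The transcript of eif2ak4, the gene of Gcn2, measured 1.55, 1.95 and 1.52 FPKM in knockout hypoxia, against 4.23, 4.18 and 4.25 FPKM in WT hypoxia. In normoxia it measured 1.66, 1.85 and 1.70 FPKM in knockout larvae, against 3.82, 3.91 and 3.63 FPKM in WT larvae. Every knockout library was below every WT library, with log2 fold changes of -0.97 ± 0.08 in hypoxia (adjusted p = 4.11e-06) and -0.81 ± 0.08 in normoxia (adjusted p = 3.17e-05). The WT hypoxia libraries varied most among themselves. Their squared differences averaged 5.72 to 6.31 times the variance of counting error, against 2.23 to 3.92 times in the other groups.

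In hypoxic against normoxic knockout larvae, slc3a2a, slc3a2b, slc7a3a, slc1a5 and slc38a3a rose and slc1a4 and slc38a2 fell. These were 5 rises and 2 falls among the 8 transporters tested, where 21.8% of all genes rose, 22.2% fell and 44.0% changed in either direction. Shares of all genes include many genes at lower levels than these 8. With a filter of 5 FPKM, 6943 of 11982 genes changed here, a larger share. The median log2 fold change of the 8 was 0.27, against -0.00030 over all genes. In RNA from whole larvae, fewer cells of a type and less RNA per cell cannot be told apart. Scaling the libraries to TPM moved the median of all genes to -0.12 and the split over all genes to 2785 higher and 7243 lower, from 4684 and 4767. Relative to that median, slc1a5 stood at 0.86, slc3a2b at 0.55, slc1a4 at -0.29 and slc38a2 at -0.79, and all of these kept their calls. The rise of slc38a3a was lost with TPM scaling (adjusted p = 0.655) and slc7a5 then passed as a fall (adjusted p = 0.0209).

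In hypoxic against normoxic WT larvae, 5 transporters rose (slc3a2a, slc3a2b, slc7a3a, slc1a4 and slc1a5) and slc38a2 alone fell among the 8 tested. The shares of all genes were 16.8% higher, 19.2% lower and 36.0% in either direction. With the 5 FPKM filter, 5875 of 11982 genes changed, a larger share. The median of the 8 was 0.30, against 0.01 over all genes. Scaling by each library's own recovered reads, an alternative chosen after seeing the data, gave 2685 genes higher and 5211 lower, against 3598 and 4125 as deposited.

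Between genotypes in hypoxia, knockout larvae had more slc3a2b, slc1a5 and slc38a3a and less slc7a5, slc1a4 and slc38a2 than WT larvae, while slc3a2a and slc7a3a did not pass the test. Against these 3 rises and 3 falls, 17% of all genes were higher, 16.2% lower and 33.1% different in either direction. The split over all genes was 3641 higher and 3470 lower, and 2823 higher and 4238 lower with TPM scaling. In normoxia, slc3a2b, slc7a3a and slc38a3a were higher and slc7a5 and slc1a5 lower in knockout than in WT larvae. The shares of all genes there were 7.63% higher, 9.11% lower and 16.7% in either direction. The split was 1638 genes higher and 1957 lower as deposited, and 2141 higher and 1252 lower with TPM scaling. With the 5 FPKM filter, 5087 of 11982 genes differed in hypoxia and 2685 in normoxia, larger shares than those over all genes. The medians of the 8 transporters were 0.12 in hypoxia and 0.08 in normoxia, against -0.0020 and -0.01 over all genes.

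The hypoxia effect itself differed between genotypes for 3 of the 8 transporters, as tested by the interaction of genotype and oxygen. It was higher in knockout than in WT larvae for slc1a5 and lower for slc1a4 and slc38a2. Over all genes, 4.74% had a higher and 4.50% a lower hypoxia effect in knockout larvae, 9.25% in all. With the 5 FPKM filter, 2081 of 11982 genes passed the interaction, a larger share. The split was 1019 higher and 967 lower as deposited, 426 and 1720 with TPM scaling, 690 and 1271 with own-read scaling and 658 and 1066 with quantile normalization. The median interaction of the 8 was -0.10, against 0.03 over all genes. All 4 pairwise comparisons and the interaction draw on the same 12 libraries and share groups, so they are not independent of each other.

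**Figure D1:**
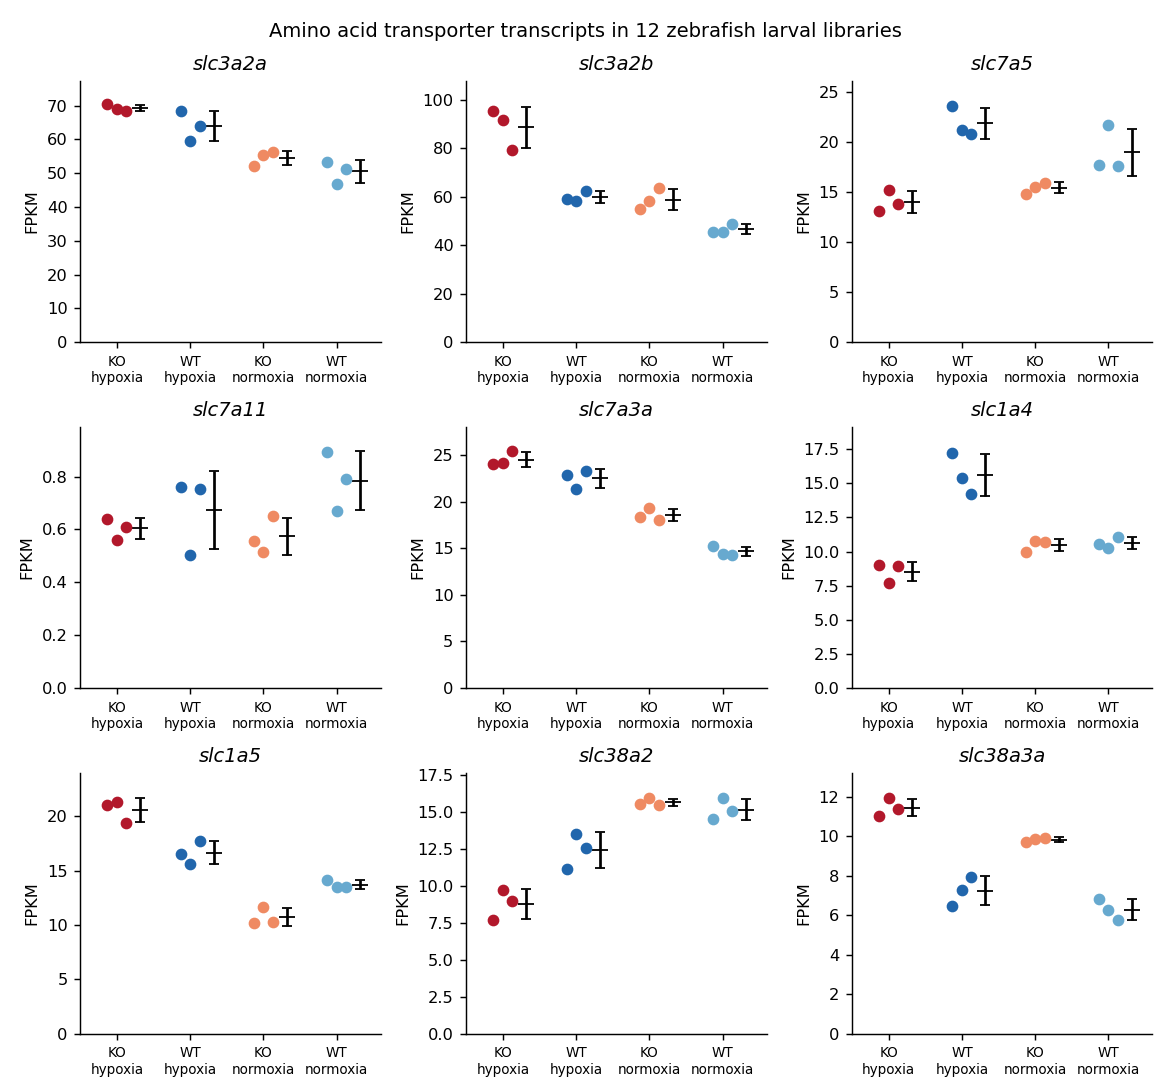
FPKM of the 9 transporters in each library, with points for the 3 libraries of a group and bars for the mean ± SD, on axes that start at 0. For slc1a4 in hypoxia, knockout (KO) libraries average 8.54 FPKM against 15.6 in WT libraries, and slc7a11 lies below 1 FPKM throughout.

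**Figure D2:**
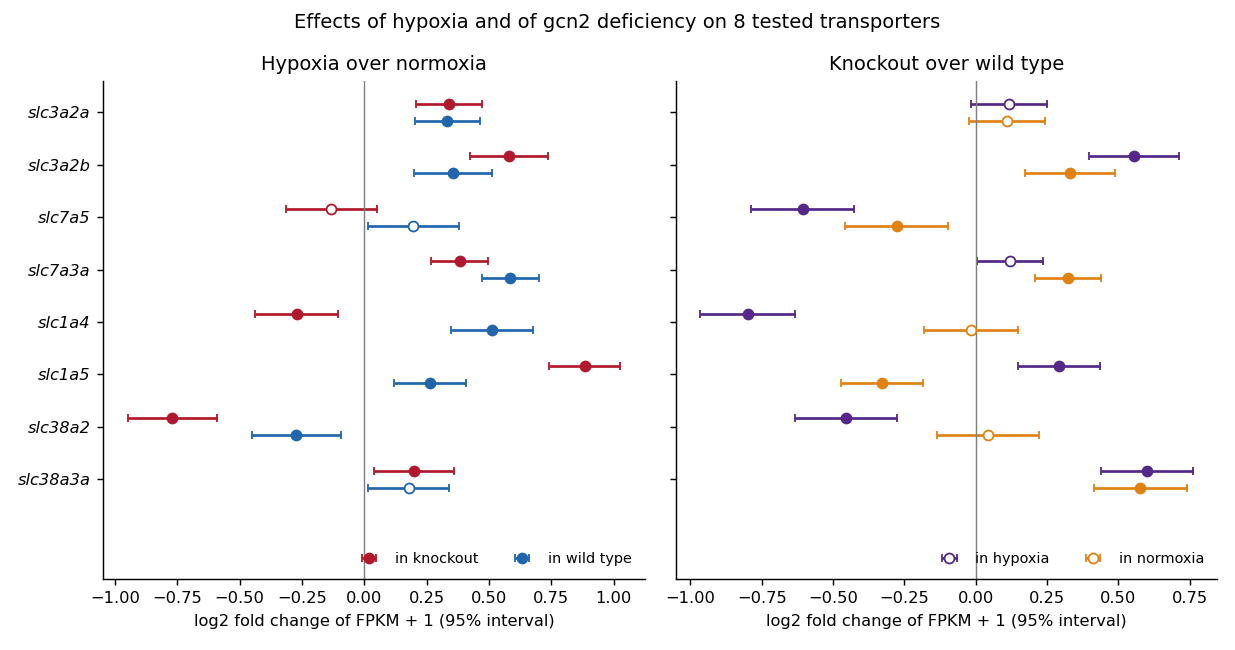
Log2 fold changes with 95% intervals for hypoxia over normoxia in each genotype (left) and knockout over WT in each oxygen condition (right), filled where the adjusted p passed and open where it did not. For slc1a4 the hypoxia effect is -0.27 in knockout and 0.51 in WT larvae, on opposite sides of 0.

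The heavy chain SLC3A2 has a pair of zebrafish copies, and these were the most abundant transcripts of the set. slc3a2b (ENSDARG00000037012, GRCz11 chromosome 21, 26720803 to 26725478, plus strand) ranked 838th and slc3a2a (ENSDARG00000036427, chromosome 7, 20524064 to 20530447, plus strand) ranked 901st of all genes by mean FPKM. How the authors counted reads that match both copies is not given in the sources used here. In hypoxia, slc3a2b measured 95.3, 91.5 and 79.1 FPKM in knockout larvae, against 59.0, 58.1 and 62.5 FPKM in WT larvae. In normoxia it measured 54.9, 58.2 and 63.4 FPKM in knockout larvae, against 45.5, 45.3 and 48.9 FPKM in WT larvae. All 3 hypoxic knockout libraries lay above every other library, the 3 normoxic WT libraries lay below every other library, and the groups between them overlapped. Hypoxia raised slc3a2b by 0.58 ± 0.07 in knockout larvae (adjusted p = 4.21e-05) and by 0.36 ± 0.07 in WT larvae (adjusted p = 0.00209). Knockout larvae exceeded WT larvae by 0.55 ± 0.07 in hypoxia (adjusted p = 0.000127) and by 0.33 ± 0.07 in normoxia (adjusted p = 0.00881). The hypoxia effects of the genotypes differed by 0.23 ± 0.10, which did not pass the test (adjusted p = 0.176).

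The other heavy chain copy, slc3a2a, rose in hypoxia by nearly the same amount in each genotype. Its hypoxic values were 70.3, 69.0 and 68.4 FPKM in knockout larvae, against 68.3, 59.5 and 63.9 FPKM in WT larvae. Its normoxic values were 52.1, 55.2 and 56.2 FPKM in knockout larvae, against 53.4, 46.8 and 51.3 FPKM in WT larvae. Hypoxic and normoxic libraries did not overlap in either genotype, the genotypes overlapped in normoxia, and in hypoxia they were separated by a narrow gap. Hypoxia raised the level by 0.34 ± 0.06 in knockout larvae (adjusted p = 0.000653) and by 0.33 ± 0.06 in WT larvae (adjusted p = 0.000993). The genotype difference did not pass in hypoxia (0.12, 95% interval -0.02 to 0.25, adjusted p = 0.162) or in normoxia (0.11, -0.02 to 0.24, adjusted p = 0.238). In normoxia it passed with TPM scaling (0.18, adjusted p = 0.0395) and with quantile normalization (0.18, adjusted p = 0.0347), and over the 22 alternatives its adjusted p ran from 0.0347 to 0.569.

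Summed over both copies, heavy chain transcripts came to 158 ± 9.34 FPKM in knockout hypoxia, 124 ± 5.33 in WT hypoxia, 113 ± 6.26 in knockout normoxia and 97.1 ± 4.32 in WT normoxia. The share of slc3a2b in this sum was 56.1 ± 2.12% in knockout hypoxia and 48.4 ± 1.78% in WT hypoxia. In normoxia it was 51.9 ± 0.986% in knockout larvae and 48.0 ± 1.74% in WT larvae. Knockout libraries thus held the larger slc3a2b share in each oxygen condition without overlap with WT libraries, a ratio that does not depend on library scaling and on which no test was run.

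Among light chains, slc7a5 (ENSDARG00000099265, chromosome 25, 12750340 to 12788370, minus strand) encodes LAT1, which in mammals exchanges leucine and other large neutral amino acids. It measured 13.1, 15.2 and 13.8 FPKM in knockout hypoxia, against 23.7, 21.2 and 20.8 FPKM in WT hypoxia. In normoxia the values were 14.8, 15.6 and 15.9 FPKM in knockout larvae, against 17.7, 21.7 and 17.6 FPKM in WT larvae. Every knockout library was below every WT library, and within each genotype hypoxic and normoxic libraries overlapped. Knockout larvae were lower in hypoxia, at -0.61 ± 0.08 (adjusted p = 0.000184), a ratio of mean FPKM of 0.641, and in normoxia, at -0.28 ± 0.08 (adjusted p = 0.0385).

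The normoxic difference in slc7a5 depended on the settings. It passed under 14 of 22 alternatives, with adjusted p from 0.0211 to 0.125, and was lost with TPM scaling (-0.21, adjusted p = 0.125), own-read scaling, quantile normalization, no filter, or without WT normoxia replicate 2 (-0.18, adjusted p = 0.124) or any 1 of the 3 knockout normoxia libraries (adjusted p = 0.0744 to 0.114). Hypoxia gave -0.13 ± 0.08 in knockout larvae (adjusted p = 0.225) and 0.20 ± 0.08 in WT larvae (adjusted p = 0.0839), and neither passed. The knockout value became significant as a fall with TPM scaling and with own-read scaling (-0.26, adjusted p = 0.0260), with adjusted p from 0.0209 to 0.496 over 22 alternatives. Without WT normoxia replicate 2, the highest normoxic library at 21.7 FPKM, the WT rise passed (0.29, adjusted p = 0.0115) and so did the interaction (-0.42, adjusted p = 0.0288), which with all libraries was -0.33 ± 0.12 (adjusted p = 0.0948). Over the alternatives, adjusted p ran from 0.0115 to 0.267 for the WT rise and from 0.0288 to 0.202 for the interaction.

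The cystine and glutamate exchanger xCT is encoded by slc7a11 (ENSDARG00000071384, chromosome 14, 41887070 to 41924901, plus strand), another light chain of SLC3A2. It was the lowest of the set, with 56 to 105 reads per library. Hypoxic values were 0.641, 0.561 and 0.610 FPKM in knockout larvae, against 0.762, 0.504 and 0.755 FPKM in WT larvae. Normoxic values were 0.556, 0.514 and 0.652 FPKM in knockout larvae, against 0.893, 0.671 and 0.789 FPKM in WT larvae. Knockout and WT libraries overlapped in hypoxia and were separated by a narrow gap in normoxia. With no filter on low values, none of the 5 comparisons passed for slc7a11: the normoxic genotype difference was -0.18 ± 0.08 (adjusted p = 0.188, unadjusted p = 0.0455) and the others had adjusted p from 0.466 to 0.860.

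Light chain transcripts as a whole were summed over 8 genes known as SLC3A2 partners in mammals, slc7a5, slc7a6, slc7a7, slc7a8a, slc7a8b, slc7a10a, slc7a10b and slc7a11. The sums were 83.3 ± 0.841 FPKM in knockout hypoxia, 79.1 ± 2.19 in WT hypoxia, 66.8 ± 1.17 in knockout normoxia and 66.5 ± 1.49 in WT normoxia. Of this sum slc7a5 made up 16.8 ± 1.11% in knockout hypoxia and 27.7 ± 1.88% in WT hypoxia, while in normoxia it made up 23.1 ± 0.495% in knockout larvae and 28.5 ± 2.87% in WT larvae. Hypoxic knockout libraries therefore had the smallest slc7a5 share without a smaller light chain sum. The partner slc7a6, a carrier of cationic and neutral amino acids singled out after its values were seen, averaged 10.9 ± 0.251 FPKM in knockout hypoxia against 6.92 ± 0.217 in WT hypoxia, and 5.62 ± 0.157 in knockout normoxia against 5.78 ± 0.0853 in WT normoxia. Its share of the light chain sum was 13.1 ± 0.213% in knockout hypoxia and between 8.41% and 8.75% on average in the other groups. The hypoxia effect on slc7a6 was larger in knockout larvae (interaction 0.63 ± 0.08, adjusted p = 0.00232). The partners slc7a7 and slc7a8a, also named after their values were seen, were above slc7a6 in every group. slc7a7 averaged 14.9 ± 1.17 FPKM in knockout hypoxia against 10.0 ± 0.176 in WT hypoxia. In normoxia it averaged 11.0 ± 0.547 in knockout and 8.19 ± 0.669 in WT larvae. For slc7a8a the means were 26.2 ± 0.118 and 23.9 ± 1.63 in hypoxia, and 18.7 ± 0.835 and 17.7 ± 0.461 in normoxia, knockout first. The ratio of heavy to light chain FPKM was 1.89 ± 0.110 in knockout hypoxia, 1.56 ± 0.0269 in WT hypoxia, 1.70 ± 0.0700 in knockout normoxia and 1.46 ± 0.0949 in WT normoxia.

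**Figure D3:**
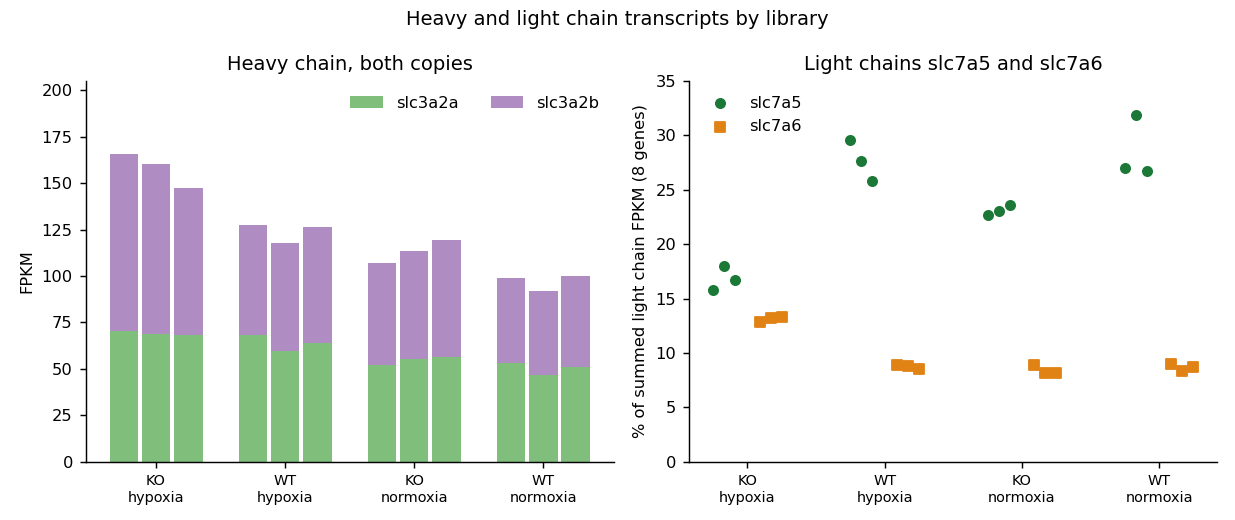
Left, stacked FPKM of the heavy chain copies slc3a2a and slc3a2b in each library. Right, the share of slc7a5 (circles) and slc7a6 (squares) in the summed FPKM of 8 light chain genes, per library, where hypoxic knockout larvae average 16.8% for slc7a5 and 13.1% for slc7a6.

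The cationic carrier slc7a3a (ENSDARG00000020645, chromosome 21, 30502002 to 30537411, plus strand) is the zebrafish copy of CAT3, which in mammals takes up arginine and lysine and needs no heavy chain. Hypoxic libraries held 24.0, 24.1 and 25.4 FPKM in knockout larvae, against 22.9, 21.4 and 23.2 FPKM in WT larvae. Normoxic libraries held 18.3, 19.4 and 18.1 FPKM in knockout larvae, against 15.2, 14.4 and 14.3 FPKM in WT larvae. None of the 4 groups overlapped, and the order from high to low was knockout hypoxia, WT hypoxia, knockout normoxia, WT normoxia. Hypoxia raised slc7a3a by 0.38 ± 0.05 in knockout larvae (adjusted p = 9.15e-05) and by 0.59 ± 0.05 in WT larvae (adjusted p = 4.09e-06). The genotype difference was 0.32 ± 0.05 in normoxia (adjusted p = 0.0014) and 0.12 ± 0.05 in hypoxia, which did not pass (adjusted p = 0.0996, from 0.0793 to 0.467 over 22 alternatives). The interaction of -0.20 ± 0.07 did not pass (adjusted p = 0.10), but did with TPM scaling (-0.33, adjusted p = 0.0361) and quantile normalization (-0.28, adjusted p = 0.0401), with adjusted p from 0.0361 to 0.200 over 21 alternatives. The other zebrafish copy, slc7a3b, named after its values were seen, averaged 1.86 ± 0.128 FPKM in knockout hypoxia, 1.78 ± 0.189 in WT hypoxia, 1.63 ± 0.196 in knockout normoxia and 1.61 ± 0.195 in WT normoxia, and passed no comparison.

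The exchangers ASCT1 and ASCT2, encoded by slc1a4 and slc1a5, trade small neutral amino acids across the membrane, with glutamine a main substrate of ASCT2 in mammals. slc1a4 (ENSDARG00000000551, chromosome 13, 24429918 to 24448278, minus strand) measured 9.00, 7.70 and 8.91 FPKM in knockout hypoxia, against 17.2, 15.4 and 14.2 FPKM in WT hypoxia. In normoxia it measured 10.0, 10.8 and 10.7 FPKM in knockout larvae, against 10.5, 10.3 and 11.1 FPKM in WT larvae. The genotypes overlapped in normoxia and were far apart in hypoxia, where WT libraries stood above and knockout libraries below every normoxic library. In hypoxia slc1a4 fell in knockout larvae, at -0.27 ± 0.08 (adjusted p = 0.0117), and rose in WT larvae, at 0.51 ± 0.08 (adjusted p = 0.000234). The fall in knockout larvae was lost without knockout hypoxia replicate 2 (-0.21, adjusted p = 0.0548) and held in the other 21 alternatives, with adjusted p from 0.000249 to 0.0548 over all 22. The difference between these effects was -0.78 ± 0.11 (adjusted p = 0.00438, passing in all 21 alternatives), the 39th smallest p of 21480 genes. In hypoxia the knockout level was 0.547 of the WT level, a log2 fold change of -0.80 ± 0.08 (adjusted p = 1.32e-05). In normoxia the genotype difference was -0.02, with a 95% interval of -0.18 to 0.15 (adjusted p = 0.906), and its sign turned with TPM scaling and with own-read scaling.

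slc1a5 (ENSDARG00000099186, chromosome 15, 11643659 to 11671173, plus strand) went the other way in hypoxic knockout larvae and in the interaction, while both genes rose in hypoxic WT larvae. Its hypoxic values were 21.1, 21.3 and 19.3 FPKM in knockout larvae, against 16.6, 15.6 and 17.7 FPKM in WT larvae. In normoxia the knockout libraries held 10.2, 11.6 and 10.3 FPKM, against 14.2, 13.5 and 13.4 FPKM in the WT libraries. No groups overlapped, and knockout larvae held the highest values in hypoxia and the lowest in normoxia. Hypoxia raised slc1a5 by 0.88 ± 0.07 in knockout larvae (adjusted p = 6.4e-07), a ratio of mean FPKM of 1.92, and by 0.26 ± 0.07 in WT larvae (adjusted p = 0.00786). The interaction was 0.62 ± 0.09 (adjusted p = 0.00667), the 63rd smallest p of 21480 genes. Knockout larvae were higher by 0.29 ± 0.07 in hypoxia (adjusted p = 0.00524) and lower in normoxia, at -0.33 ± 0.07 (adjusted p = 0.00539). All 5 of these calls for slc1a5 held under every alternative run.

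Set against each other within a library, which cancels library scaling, slc1a5 was 2.43 ± 0.308 times slc1a4 in knockout hypoxia and 1.07 ± 0.150 times in WT hypoxia. The ratio was 1.02 ± 0.0581 in knockout normoxia and 1.29 ± 0.0682 in WT normoxia. The 3 hypoxic knockout libraries, at 2.34, 2.77 and 2.17, were above every other library, of which the highest, a WT normoxia library, was at 1.35.

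Of the SLC38 carriers, slc38a2 (ENSDARG00000045886, chromosome 4, 1600034 to 1617897, plus strand) encodes SNAT2, a sodium-coupled carrier of small neutral amino acids that amino acid shortage induces in mammalian cells. It measured 7.72, 9.75 and 8.96 FPKM in knockout hypoxia, against 11.1, 13.5 and 12.6 FPKM in WT hypoxia. Normoxic values were 15.5, 15.96 and 15.5 FPKM in knockout larvae, against 14.5, 15.9 and 15.1 FPKM in WT larvae. All hypoxic libraries were below all normoxic libraries, the hypoxic knockout libraries were lowest, and the genotypes overlapped in normoxia. In hypoxia slc38a2 fell by 0.77 ± 0.08 in knockout larvae (adjusted p = 1.22e-05), a ratio of mean FPKM of 0.562, and fell by 0.27 ± 0.08 in WT larvae (adjusted p = 0.0205). The WT fall was lost without WT normoxia replicate 2 (-0.24, adjusted p = 0.0724) or WT hypoxia replicate 1 (-0.20, adjusted p = 0.0815), with adjusted p from 0.00397 to 0.0815 over 22 alternatives. The genotypes differed by -0.45 ± 0.08 in hypoxia (adjusted p = 0.00128) and by 0.04 in normoxia (95% interval -0.14 to 0.22, adjusted p = 0.761).

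The larger fall of slc38a2 in knockout larvae passed as an interaction of -0.50 ± 0.12 (adjusted p = 0.0249), 855th of 21480 genes by p. It was lost when any of 6 libraries was left out, namely WT normoxia replicates 1 and 3, knockout normoxia replicates 2 and 3, WT hypoxia replicate 2 and knockout hypoxia replicate 1, with values of -0.50 to -0.41 and adjusted p of 0.0528 to 0.0661. The next carrier gene on chromosome 4, slc38a4 (1516716 to 1566572, plus strand, 33462 bases away), named after its values were seen, averaged 32.3 ± 1.09 FPKM in knockout hypoxia, 27.2 ± 1.16 in WT hypoxia, 22.1 ± 2.37 in knockout normoxia and 21.3 ± 1.57 in WT normoxia. It rose in hypoxia by 0.53 ± 0.07 in knockout larvae (adjusted p = 0.000102) and by 0.34 ± 0.07 in WT larvae (adjusted p = 0.00329), the direction opposite to that of slc38a2. No gene of the table overlaps slc38a2 or another of the 9 transporters.

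The glutamine carrier SNAT3, found in mammalian liver, kidney and astrocytes, is encoded by slc38a3a (ENSDARG00000027065, chromosome 11, 34824099 to 34914857, plus strand) and a second copy, slc38a3b. Knockout larvae had 11.1, 11.9 and 11.4 FPKM of slc38a3a in hypoxia, against 6.49, 7.29 and 7.95 FPKM in WT larvae. In normoxia knockout larvae had 9.70, 9.89 and 9.94 FPKM, against 6.83, 6.25 and 5.76 FPKM in WT larvae. All 6 knockout libraries were above all 6 WT libraries, and the WT groups overlapped. The genotype difference was 0.60 ± 0.08 in hypoxia (adjusted p = 8.94e-05) and 0.58 ± 0.08 in normoxia (adjusted p = 0.00028), with an interaction of 0.02 (95% interval -0.21 to 0.25, adjusted p = 0.921). Both genotype differences passed in every alternative.

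Hypoxia moved slc38a3a little. In knockout larvae it gave 0.20 ± 0.08 (adjusted p = 0.0449), a call that 8 of 22 alternatives kept and that was lost without any 1 of the 6 knockout libraries, WT normoxia replicate 2 or WT hypoxia replicate 2 (0.17 to 0.22, adjusted p = 0.0511 to 0.133). The rise in WT larvae of 0.18 ± 0.08 did not pass (adjusted p = 0.0814), but did with voom on recovered reads (0.20, adjusted p = 0.0314) and without WT normoxia replicate 1 (0.23, adjusted p = 0.0476) or WT hypoxia replicate 1 (0.25, adjusted p = 0.0233). Over all 22 alternatives each, adjusted p ran from 0.0112 to 0.655 in knockout larvae and from 0.0233 to 0.303 in WT larvae. The second copy slc38a3b, also named after its values were seen, averaged 12.2 ± 0.554 FPKM in knockout hypoxia, 8.73 ± 0.259 in WT hypoxia, 6.58 ± 0.571 in knockout normoxia and 5.13 ± 0.373 in WT normoxia. It rose in hypoxia by 0.80 ± 0.07 in knockout larvae (adjusted p = 2.2e-06) and by 0.67 ± 0.07 in WT larvae (adjusted p = 1.47e-05). As with slc38a3a, the knockout libraries were above the WT libraries in each oxygen condition, without overlap. The ratio of slc38a3a to slc38a3b within a library was 0.940 ± 0.0665 in knockout hypoxia, 0.832 ± 0.106 in WT hypoxia, 1.50 ± 0.120 in knockout normoxia and 1.22 ± 0.0159 in WT normoxia, so slc38a3a exceeded its paralog in normoxic libraries only.

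The 9 transcripts together summed to 246 ± 9.11 FPKM in knockout hypoxia, 221 ± 7.20 in WT hypoxia, 195 ± 7.57 in knockout normoxia and 177 ± 2.11 in WT normoxia. The heavy chain copies made up most of that sum in each group. By the distance between the highest and the lowest group mean of log2(FPKM + 1), slc3a2b (0.91), slc1a5 (0.88) and slc1a4 (0.80) ranged most and slc3a2a (0.45) least among the 8 tested.

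A wider list of 57 other amino acid transporters, 52 of them tested, gave 14 rises and 10 falls in knockout hypoxia and 15 rises and 5 falls in WT hypoxia, each against normoxia, with medians of 0.02 and 0.08. That is 46.2% and 38.5% of those tested, near the shares of all genes given above (44.0% and 36.0%). Largest among them were the rises of slc38a5b, slc43a2b and slc43a2a, at 1.49, 1.47 and 1.15 in knockout larvae and at 1.21, 1.67 and 1.01 in WT larvae. slc43a2b and slc43a2a are copies of LAT4, a facilitative carrier of branched-chain amino acids, and slc38a5b of the glutamine carrier SNAT5. In each genotype these values were above those of all 8 tested members, whose highest were 0.88 for slc1a5 in knockout larvae and 0.59 for slc7a3a in WT larvae. Falls in knockout hypoxia were led by slc1a2b (-0.99), a glial glutamate carrier, slc6a15 (-0.68), a neutral amino acid carrier of neurons, and slc16a10 (-0.55), an aromatic amino acid carrier. Falls in WT hypoxia were led by slc1a2a (-0.60), slc38a7 (-0.46) and slc43a1a (-0.39).

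**Figure D4:**
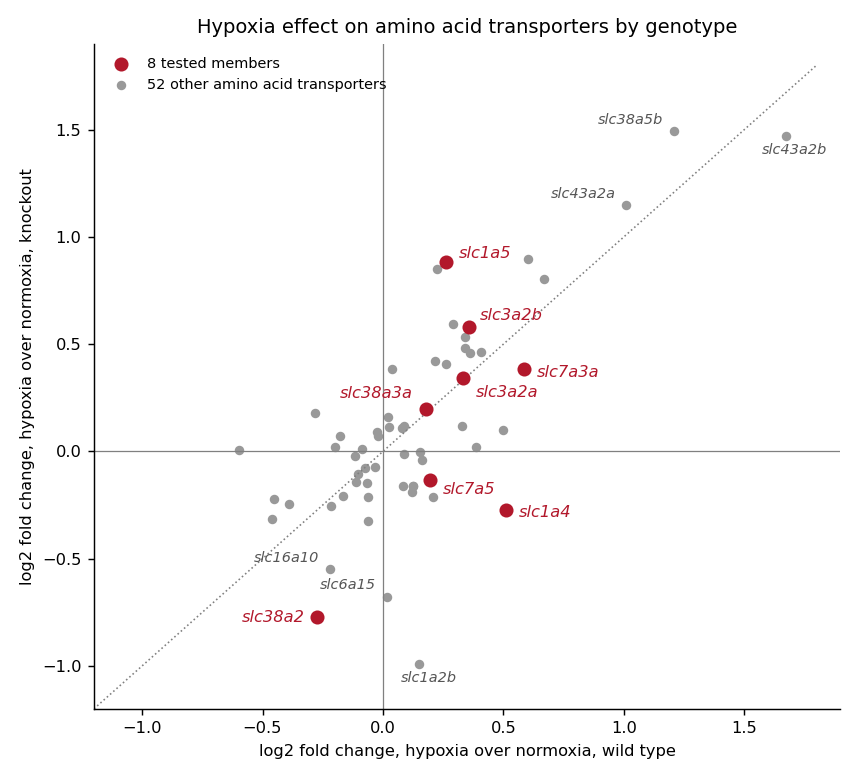
Log2 fold change of hypoxia over normoxia in knockout larvae (vertical) against that in WT larvae (horizontal) for the 8 tested members (red) and 52 other amino acid transporters (grey), with a dotted line where both are equal. slc1a4 lies far below the line and slc1a5 above it, while the highest values are those of slc38a5b (1.49) in knockout and slc43a2b (1.67) in WT larvae.

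Between genotypes the wider list had 14 higher and 8 lower in hypoxia, 42.3% of those tested, and 12 higher and 4 lower in normoxia, 30.8%, against 33.1% and 16.7% of all genes. The largest differences were in slc6a19b, a copy of the neutral amino acid carrier B0AT1 of intestine and kidney in mammals, which averaged 7.84 ± 0.204 FPKM in knockout hypoxia against 2.06 ± 0.552 in WT hypoxia, and 7.47 ± 1.34 in knockout normoxia against 2.43 ± 0.0838 in WT normoxia. Its log2 fold change was 1.55 in hypoxia (adjusted p = 5.66e-06) and 1.29 in normoxia (adjusted p = 4.17e-05), and the tandem copy slc6a19a.2 followed at 0.84 and 0.74, with reads that may be shared with slc6a19a.1. Also higher in knockout larvae were slc6a6b in hypoxia (0.59), a taurine carrier, and slc43a2b in normoxia (0.49). Lower in hypoxia were slc1a2b (-0.76, and -0.49 without WT hypoxia replicate 2, the highest of its group), slc6a15 (-0.51) and slc38a9 (-0.39), the lysosomal arginine sensor of mTORC1, and lower in normoxia were slc38a6 (-0.53), slc38a9 (-0.49) and slc43a1a (-0.22, lost with TPM and own-read scaling and without WT normoxia replicate 1 or 3 or knockout normoxia replicate 1 or 2, adjusted p = 0.0724 to 0.112). In the interaction, 4 were higher and 4 lower, 15.4% against 9.25% of all genes. The shares of all genes were larger with the 5 FPKM filter. Of 11982 genes, 5087 then differed in hypoxia, 2685 in normoxia and 2081 in the interaction.

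A list of 16 genes, 15 of them tested, held the ATF4 copies atf4a and atf4b and genes known in mammals as targets or partners of ATF4. In hypoxic knockout larvae 10 rose and 1 fell, and in hypoxic WT larvae 7 rose and 2 fell, with medians of 0.36 and 0.24. That is 73.3% and 60.0% of those tested, against 44.0% and 36.0% of all genes. Named by smallest p, ppp1r15a, a subunit of the eIF2 phosphatase, pck2, a mitochondrial gluconeogenic enzyme, and the serine synthesis gene psat1 rose in knockout hypoxia by 2.21, 1.26 and 0.86. In WT hypoxia ppp1r15a rose by 1.72 and pck2 by 0.76, while the cysteine synthesis gene cth fell by 0.46. Between genotypes, 5 were higher and 4 lower in hypoxia, and 1 was higher and 3 lower in normoxia. These are 60.0% and 26.7% of those tested, against 33.1% and 16.7% of all genes. The 3 of smallest p in hypoxia were pck2 (0.87), cth (0.51) and cebpb (0.65). All 3 were higher, so that rule names none of the 4 lower genes. The 3 of smallest p in normoxia were atf4a (-0.43), pck2 (0.36) and phgdh (-0.37). atf4a averaged 211 ± 19.2 FPKM in knockout hypoxia against 264 ± 14.3 in WT hypoxia, and 164 ± 3.58 in knockout normoxia against 222 ± 5.69 in WT normoxia. The interaction was higher for 5 (cth 0.54, psat1 0.79 and pck2 0.51 among them) and lower for none, 33.3% against 9.25% of all genes. For this list too, the shares of all genes were larger with the 5 FPKM filter. Of 11982 genes, 6943 then changed in knockout hypoxia and 2081 passed the interaction.

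By a rule on closeness, the genes whose centred log2(FPKM + 1) values over the 12 libraries lay nearest to slc3a2b were aspg, fst and ndrg1, at Euclidean distances of 0.271, 0.298 and 0.304. Nearest to slc1a5 were samsn1a (0.221), zyg11 (0.281) and flot1 (0.340), and nearest to slc1a4 were fggy (0.248), col5a3b (0.307) and kctd5 (0.390). fggy, for example, averaged 4.81 FPKM in knockout hypoxia, 8.14 in WT hypoxia, 5.72 in knockout normoxia and 5.92 in WT normoxia. Its likeness to slc1a4 is what the rule selected for.

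Marker genes of several tissues moved with the same contrasts, and their part in the transporter results was not tested. Proliferation markers fell in hypoxia, all 5 of 5 in each genotype, and their summed level was 104 to 109 FPKM in knockout hypoxia, 130 to 144 in WT hypoxia, 265 to 283 in knockout normoxia and 311 to 346 in WT normoxia. They were also lower in knockout than in WT larvae, 5 of 5 in hypoxia and 4 of 5 in normoxia, as slc7a5 was. Unlike these markers, slc7a5 did not pass as a fall in hypoxia as deposited, at -0.13 in knockout and 0.20 in WT larvae. Intestine markers were higher in knockout larvae, 5 of 5 in hypoxia and 3 of 5 in normoxia, as slc38a3a and slc6a19b were. The marker sums were 587 to 663 FPKM in knockout hypoxia against 298 to 383 in WT hypoxia. In normoxia the sums were 593 to 630 FPKM in knockout larvae against 441 to 547 in WT larvae. Hypoxia lowered 4 of 5 intestine markers in WT and 2 of 5 in knockout larvae. For slc38a3a the hypoxia effect was 0.18 in WT and 0.20 in knockout larvae. Liver markers were mixed between genotypes. Of 5, 2 were higher and 1 lower in knockout larvae in hypoxia, and 1 higher and 1 lower in normoxia. Of 5 yolk syncytial layer markers, 3 were higher and 0 lower in hypoxia, and 2 higher and 1 lower in normoxia. Glia markers, a list that holds slc1a2b, summed to 509 to 556 FPKM in knockout hypoxia, 519 to 581 in WT hypoxia, 559 to 575 in knockout normoxia and 685 to 724 in WT normoxia. By gene they were split, with 2 of 5 rising and 2 falling in hypoxia in each genotype. Between genotypes, 1 was higher and 2 lower in knockout larvae in hypoxia, and 0 higher and 3 lower in normoxia. Skeletal muscle markers rose in hypoxia, 5 of 5 in knockout and 3 of 5 in WT larvae, with sums of 9183 to 10120 FPKM in knockout hypoxia and 10670 to 11622 in WT hypoxia, against 6534 to 6681 in knockout normoxia and 8146 to 8630 in WT normoxia. Exocrine pancreas markers, of which 2 of 5 were in the table by name, were higher in knockout larvae (2 of 2 in each oxygen condition) and fell in hypoxia (2 of 2 in each genotype). Proliferation markers were not the only ones lower in knockout larvae. Of 5 skeletal muscle markers, 1 was higher and 2 lower in hypoxia, and 0 higher and 4 lower in normoxia. Of 3 endothelium markers found by name, 0 were higher and 2 lower in hypoxia, and 0 higher and 1 lower in normoxia. Of 5 epidermis markers, 2 were higher and 2 lower in hypoxia, and 1 higher and 2 lower in normoxia. None of the markers found in the table was at 0 in all libraries.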

How the data were processed

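The deposited table gives FPKM, computed by the authors, for 35004 genes in each of 12 libraries, with gene length in bases (other columns) and coordinates. Per the submitters' processing notes, the tools named are fastp, HISAT2 (2.2.1) and featureCounts (2.0.6), and the build is GRCz11. How the authors scaled FPKM is not given in the sources used here. The deposited values already lay close to a median ratio scale. Median ratio scaling called 7720 genes in WT hypoxia against 7723 as deposited, and 1986 in the interaction in both. As an alternative in the list below, it could therefore move few calls. FPKM times gene length came in whole steps for 100% of values (within 0.05 of a step), from which reads were recovered (15668848 to 16841145 per library). The total that each library was divided by was 0.945 to 0.997 times its recovered reads in hypoxia and 1.01 to 1.07 times in normoxia. Groups came from the sample titles. Genes with at least 1 FPKM in at least 3 libraries were kept (21480). limma 3.58.1 (R 4.3.3) was fitted to log2(FPKM + 1) of all 12 libraries with a mean per group and a variance trend, without the replicate number, and adjusted p under 0.05 was the threshold. The fit was tested on simulated data. The test planned for a table of raw counts was not run, since the table holds FPKM. Residuals of the 18 same-numbered library pairs correlated at -0.087 to 0.119 (median 0.015), with 1 pair above 0.1, so numbers were not taken as pairs. The alternatives tried were no filter, a 5 FPKM filter, a 0.1 pseudocount, TPM, median ratio and quantile scaling, voom on recovered reads, the compared groups alone, the replicate number as a block, each library left out, and, added later, scaling by each library's own recovered reads.

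The 9 genes and the other lists were chosen with earlier results of these data known. All 9 are named throughout. Of the other transporters, up to 3 rises and 3 falls per comparison are named, largest among those past the test with no overlap between groups and a higher group mean of 2 FPKM or more, and of the ATF4-related genes up to 3 with the smallest p. Likeness was measured for the 3 members of widest range. slc7a6, slc7a7, slc7a8a, slc38a3b, slc7a3b and slc38a4 were named after their values were seen. Promoter and protein sequences were not used here. Tables and figures were made with Python 3.11.15, pandas 2.3.3, numpy 2.4.6 and matplotlib 3.10.9.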

Additional observations from a re-analysis of the deposited data

Results flagged for a closer look

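For 3 of the 8 tested transporters the effect of hypoxia differed between the genotypes by the test of the difference itself (limma, Benjamini-Hochberg over 21480 genes). For slc1a4 the effect in knockout minus that in WT larvae was -0.78 on the log2(FPKM + 1) scale (adjusted p = 0.00438), from -0.27 in knockout larvae and 0.51 in WT larvae, with all 3 hypoxic knockout libraries below and all 3 hypoxic WT libraries above the normoxic libraries. For slc1a5 it was 0.62 (adjusted p = 0.00667), from 0.88 in knockout larvae and 0.26 in WT larvae. For slc38a2 it was -0.50 (adjusted p = 0.0249), from -0.77 in knockout larvae and -0.27 in WT larvae, and this one did not survive the removal of any of 6 single libraries. Of all genes 9.25% passed this test, 1986 in number, but 480 to 2839 passed with a library left out. With a 5 FPKM filter, 2081 of 11982 genes passed, a larger share.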

How the results depend on the processing

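The number of transporters past the test stayed within 1.5 times of that reported in every comparison and alternative except the interaction, where TPM scaling gave 5 in place of 3 (slc7a3a and slc7a5 were added). Leaving out each library in turn gave 5 to 7 in knockout hypoxia, 6 to 7 in WT hypoxia, 6 between genotypes in hypoxia, 4 to 5 between genotypes in normoxia and 2 to 4 in the interaction. With the replicate block, a fit that treats libraries with the same number as paired, these counts were 6, 6, 6, 5 and 3, and the rise of slc38a3a in knockout hypoxia was the one call lost among the 9 genes (0.20, adjusted p = 0.0642). Signs turned for 3 values that were near 0 and not past the test, and the cause was not tested. The slc38a3a interaction was -0.10 with TPM scaling, -0.0029 with quantile normalization, -0.042 with own-read scaling and -0.045 to 0.083 with a library left out. The slc3a2a interaction was -0.12, -0.17, -0.059 and -0.043 to 0.059 under the same alternatives. The normoxic genotype difference of slc1a4 was 0.046 with TPM scaling, 0.033 with own-read scaling and -0.039 to 0.014 with a library left out. Over all member values and alternatives, 810 kept their direction and side of the threshold, 31 lost a call, 13 gained one and 18 changed sign. Among other named genes 846 were kept and 7 lost a call, one of them the pck2 interaction with quantile normalization (0.31, adjusted p = 0.0968). Over all genes, the interaction gave 1986 calls, but 1230 with no filter, 3000 with voom on recovered reads and 480 to 2839 with a library left out (480 without WT normoxia replicate 1, 655 without its replicate 3, 1040, 1085 and 557 without knockout normoxia replicates 1, 2 and 3, 997 without WT hypoxia replicate 2, and 611 and 1242 without knockout hypoxia replicates 1 and 2). The normoxic genotype difference gave 3595, but 2048 to 3993 with a library left out (2048 without WT normoxia replicate 3, 2266 and 2144 without knockout normoxia replicates 2 and 3). With the compared groups alone it gave 4609, and with voom on recovered reads 4522. The hypoxic genotype difference gave 7111, but 5111 with the compared groups alone. A fit of the compared groups alone gives no interaction value. The planned promoter motif search was not run. At 56 to 105 reads per library, counting error limits slc7a11.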
